A study of Mus musculus with 14 samples.

Results

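The genes described are 8 transport and marker genes of the thick ascending limb, chosen by gene symbol: Slc12a1, Umod, Kcnj1, Bsnd, Cldn10, Cldn16, Cldn19 and Egf. All 8 were among the 20203 genes of the kidney count table and all 8 passed the filter on low counts, which left 15847 kidney genes to test. The liver table of 19660 genes listed 5 of them (Bsnd, Cldn16 and Cldn19 were not listed), and 1 of those, Egf, passed the liver filter.

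The RNA came from 12 week old adult male mice carrying a human angiotensinogen transgene with the -6A haplotype. Every group carried the transgene, and the strain background is not given in the sources used here. Kidney was sequenced in 3 libraries on a normal diet and 3 on a high salt diet, and liver in 4 libraries on each. The labels do not say whether libraries of 1 group came from separate animals, so the p-values measure only the spread between these libraries. The tissue was bulk RNA, in which fewer cells of a type and less RNA per cell cannot be told apart.

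The thick ascending limb is the part of the nephron that takes up salt without water, which dilutes the tubular fluid and feeds the concentrating gradient of the medulla. Sodium, potassium and chloride enter the cell together through the apical cotransporter NKCC2, encoded by Slc12a1 and blocked by loop diuretics. Potassium returns to the lumen through ROMK, encoded by Kcnj1, and chloride leaves at the basolateral side through ClC-K channels that need barttin, encoded by Bsnd. The resulting positive charge of the lumen drives sodium, calcium and magnesium between the cells through pores of claudin-10b, claudin-16 and claudin-19. The segment also makes uromodulin (Umod), the most abundant protein of normal human urine, and the precursor of epidermal growth factor (Egf).

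Upstream sequences are shown for the member with the highest level, Umod, and for Cldn10, which stood apart from the others across libraries. Cldn10 has a pair of annotated starts, as have Cldn19 and Egf, which are not shown. Each run is the 250 bases before an annotated start, read 5′ to 3′ on the gene's strand, from RefSeq on GRCm38.p6. Capitals mark a match to GTTAAT on either strand (ATTAAC when on the other strand), a half-site known for HNF1 factors, which act in kidney tubules.
Umod, chr7:119479263-119479512, minus strand: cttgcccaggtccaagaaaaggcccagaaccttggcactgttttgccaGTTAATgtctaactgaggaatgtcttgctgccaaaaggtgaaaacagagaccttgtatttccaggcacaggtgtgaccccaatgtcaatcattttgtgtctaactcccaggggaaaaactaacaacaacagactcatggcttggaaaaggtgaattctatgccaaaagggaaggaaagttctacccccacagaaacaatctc
Cldn10 upstream start, chr14:118787621-118787870, plus strand: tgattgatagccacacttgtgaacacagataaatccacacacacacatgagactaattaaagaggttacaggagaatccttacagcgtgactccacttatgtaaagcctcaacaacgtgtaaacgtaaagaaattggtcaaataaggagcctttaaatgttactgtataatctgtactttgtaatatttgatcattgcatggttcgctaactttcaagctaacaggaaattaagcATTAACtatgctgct
Cldn10 downstream start, chr14:118854700-118854949, plus strand: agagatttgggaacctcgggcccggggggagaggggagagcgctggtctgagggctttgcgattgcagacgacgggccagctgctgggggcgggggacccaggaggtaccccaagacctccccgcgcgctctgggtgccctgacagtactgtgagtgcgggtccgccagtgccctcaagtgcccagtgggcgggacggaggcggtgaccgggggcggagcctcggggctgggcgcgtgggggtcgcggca
RefSeq windows were found for 7 of the 8 genes, 10 windows in all, each with 250 bases before and 50 bases from the start. GTTAAT was found in 2 of these 10 windows and in 7.1% of all 32851 mouse windows. The Umod match lies at bases -202 to -197 from the start, and the Cldn10 match at -15 to -10 of the upstream start, on the other strand. AAGGTCA, a half-site known for estrogen-related receptors, was found in 0 of the 10 windows and in 4.72% of all windows, and its letters do not overlap those of GTTAAT. A match is only a description of these letters. The Cldn10 starts lie 67079 bases apart, and the bases shown are 36% G or C at the upstream start and 72.4% at the downstream start. The alternate first exons of Cldn10 are known to give claudin-10a, of the proximal tubule, and claudin-10b, of the thick ascending limb. A count per gene does not separate them, and no start is assigned to a form here.

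Libraries differed in ways the diets do not explain. Kidney libraries held 16046094 to 22004927 gene counts and liver libraries 37267778 to 51487382. Mitochondrial transcripts took 23.5% to 41.2% of the kidney counts and 2.06% to 29.6% of the liver counts, with normal diet library 3 the highest in liver. The first principal component of the kidney values, with 53.9% of the variance, set high salt libraries 1 and 3 and normal diet library 1 apart from the remaining 3. Genes in the longest quartile of exon length (4647.75 bases or more) were compared with those in the shortest (1690 bases or fewer). Their median log2 difference from the gene mean, long minus short, was 0.75 in normal diet library 1, 0.26 and -0.080 in high salt libraries 1 and 3, and -0.28 to -0.38 in the other 3. In liver, the pair HS5 and HS6, both on high salt, stood closest of the pairs of 1 diet, with a median absolute log2 difference of 0.0751 per gene. In the 11 other liver pairs it was 0.145 to 0.525. The high salt liver libraries are called HS5 to HS8 after their columns, whose numbers match no title.

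Within the kidney, the 8 genes spanned a wide range of levels. Levels between genes are given as CPM (counts scaled to a common library size, here by TMM) per kilobase (kb) of exon, on the normal diet. Umod was highest at 518 ± 153 CPM per kb (SD, n = 3), above 99.34% of the genes tested on that diet. Egf (125 ± 20.5), Slc12a1 (121 ± 21.1), Cldn10 (94.9 ± 30.3) and Kcnj1 (75.7 ± 4.47) followed, each above at least 95.55% of the genes tested. Cldn16 (7.53 ± 2.75), Bsnd (7.43 ± 1.02) and Cldn19 (3.09 ± 0.913) formed a lower tier, with Cldn19 near the middle of all genes (percentile 50.97). The neighbours Egf and Slc12a1, and Cldn16 and Bsnd, overlapped over their libraries and do not differ beyond their spread. The ranges of Slc12a1 and Cldn10, and of Cldn10 and Kcnj1, overlapped as well. Only the gap from Umod to Egf, the gap from Kcnj1 to Cldn16 and the gap from Bsnd to Cldn19 were free of overlap among neighbours. On high salt the levels were 488 for Umod, 108 for Slc12a1, 105 for Egf, 82.7 for Cldn10, 60.5 for Kcnj1, 6.64 for Bsnd, 5.16 for Cldn16 and 2.73 for Cldn19. Egf and Slc12a1, and Cldn16 and Bsnd, changed places there.

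The first comparison asked how the high salt diet changed these genes in kidney. Across the 8 genes, 0 passed an adjusted p-value of 0.05 with the quasi-likelihood test of edgeR, and 0% of all 15847 kidney genes did (adjusted p = 0.9996 for each of the 8). Unadjusted p-values under 0.05 were found for 0 of the 8 and for 2.01% of all genes, and DESeq2 called 0 of the 8 and 11 genes in all. The fitted log2 fold change was below 0 for 8 of 8, with a median of -0.19, but for 3 of 8, with a median of 0.037, when libraries were scaled by their raw totals alone, and for 6 of 8, with a median of -0.089, without normal diet library 1. It was below 0 for 6 of 8 without high salt library 2 and for 7 of 8 without high salt library 1. Over all genes, 53.7% were below 0 and the median was -0.025, which raw totals moved to 0.204. Relative to that, the median of the 8 genes stood lower under both scalings. The 95% intervals of the fold (high salt over normal diet) reached from 0.434 for Cldn16 to 1.56 for Cldn10 at their widest ends, so changes outside that range lie beyond the interval of every one of the 8.

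**Figure D1:**
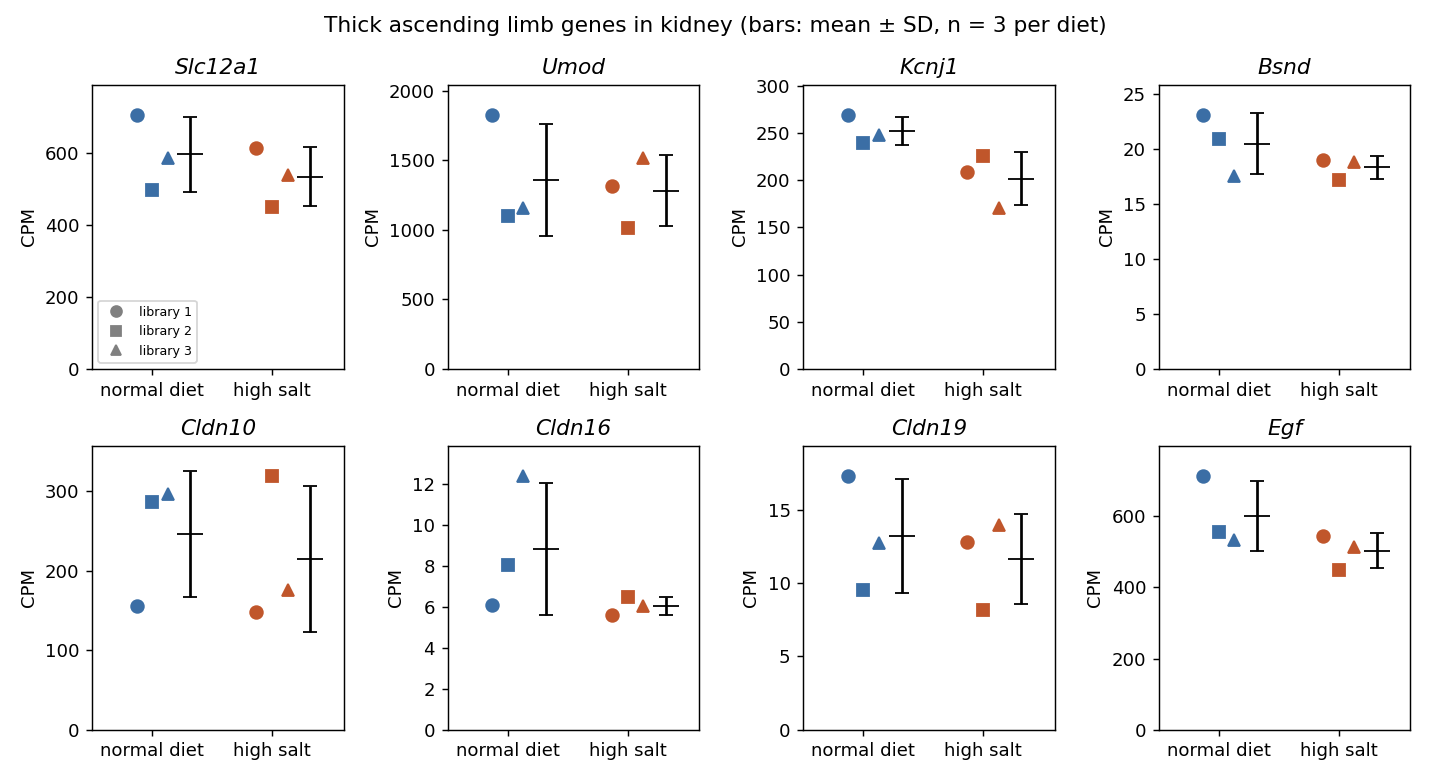
Level of each gene in the 6 kidney libraries, in CPM over TMM library sizes (vertical axes start at 0), with blue points for the normal diet, orange points for high salt, and bars for the mean ± SD (n = 3 per diet). Kcnj1 is the one panel in which the diets do not touch, 239.9 to 269 against 171 to 226 CPM, and with raw totals as library sizes they do.

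Slc12a1 (chromosome 2, 125152505 to 125230002, plus strand), the apical salt entry path, was 704, 497 and 586 CPM in normal diet libraries 1, 2 and 3. It was 613, 450 and 538 CPM in high salt libraries 1, 2 and 3. The diets overlapped, with the highest value in normal diet library 1 and the lowest in high salt library 2. Its log2 fold change was -0.16 (standard error, SE, 0.23, 95% interval -0.69 to 0.37; edgeR p = 0.513, two-sided exact permutation p = 0.5). Exact tests were run for each of the 8 genes, and with 3 libraries against 3 none can go below 0.1.

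Kcnj1 (chromosome 9, 32372493 to 32399197, plus strand), the potassium channel that recycles what NKCC2 takes up, was 269, 239.9 and 248 CPM on the normal diet. On high salt it was 208, 226 and 171 CPM. All 3 high salt libraries lay under all 3 normal diet libraries, the only one of the 8 genes with such a split, which 3.04% of all kidney genes showed in that direction. The opposite split, higher on high salt, was seen in 0 of the 8 and in 3.84% of all genes. The split held under the RLE and upper quartile scalings and not with raw totals, where 209 to 257 CPM on the normal diet met 212 to 223 on high salt. The log2 fold change was -0.32 (SE 0.20, 95% interval -0.79 to 0.14; edgeR p = 0.149, exact permutation p = 0.1). Kcnj1 is also expressed in the distal convoluted tubule and collecting duct, so its level is not that of the thick ascending limb alone.

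Bsnd (chromosome 4, 106483456 to 106492283, minus strand), the chloride channel subunit, had the narrowest range over the 6 libraries of the 8 genes with TMM scaling, but not with raw totals, where Kcnj1 was narrower (1.23-fold against 1.42-fold from the lowest to the highest library). It was 23.0, 20.9 and 17.5 CPM on the normal diet, against 19.0, 17.1 and 18.8 CPM on high salt. The lowest normal diet value lay inside the high salt range. Its log2 fold change was -0.16 (SE 0.19, 95% interval -0.59 to 0.27; edgeR p = 0.412, exact permutation p = 0.3). With TMM its highest value over all 6 libraries was 1.34 times its lowest, against 1.56 to 2.2 times for the other 7 genes.

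The claudins did not follow 1 pattern. Cldn10 (chromosome 14, 118787908 to 118875489, plus strand) was 155, 287 and 296 CPM on the normal diet. It was 148, 319 and 176 CPM on high salt. Each diet held low and high libraries, with a gap from 176 to 287 CPM between them. Its log2 fold change of -0.20 had the widest interval of the 8, from -1.04 to 0.64 (SE 0.36; edgeR p = 0.598, exact permutation p = 0.9).

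Cldn16 (chromosome 16, 26463135 to 26482765, plus strand), which with claudin-19 forms the path for magnesium and calcium, was 6.10, 8.02 and 12.4 CPM on the normal diet. It was 5.63, 6.49 and 6.05 CPM on high salt, from 103 to 137 counts in 5 of the 6 libraries and 256 counts in normal diet library 3. That library stood highest, library 2 lay above the high salt range and library 1 inside it. Its log2 fold change was the lowest of the 8 at -0.55 (SE 0.29, 95% interval -1.20 to 0.11; edgeR p = 0.0908, exact permutation p = 0.2). Without normal diet library 3 it was -0.22 and without normal diet library 1 it was -0.76 (edgeR, unadjusted p = 0.00892, adjusted p = 0.24, with adjusted p-values of 0.24 or more over all alternatives).

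Cldn19 (chromosome 4, 119255414 to 119262438, plus strand) was 17.3, 9.55 and 12.7 CPM on the normal diet, against 12.8, 8.13 and 13.96 CPM on high salt. The diets overlapped over most of their range, and with TMM scaling the highest and lowest libraries were those of Umod, not those of Cldn16. Its log2 fold change was -0.18 (SE 0.29, 95% interval -0.86 to 0.49; edgeR p = 0.555, exact permutation p = 0.6), and 0.065 without normal diet library 1.

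The secreted products were abundant and variable. Umod (chromosome 7, 119462711 to 119479282, minus strand) was 1823, 1098 and 1159 CPM on the normal diet. On high salt it was 1313, 1014 and 1518 CPM. Normal diet library 1 was highest and high salt library 2 lowest, and the diets overlapped over most of their range. The log2 fold change was -0.086 (SE 0.28, 95% interval -0.73 to 0.56; edgeR p = 0.768, exact permutation p = 0.8), and its sign turned to 0.184 without normal diet library 1.

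Egf (chromosome 3, 129677565 to 129755316, minus strand) was 713, 556 and 533 CPM on the normal diet, against 546, 449.5 and 513 CPM on high salt. High salt library 1 lay between normal diet libraries 2 and 3, and the other high salt libraries lay under every normal diet library. The log2 fold change was -0.26 (SE 0.22, 95% interval -0.76 to 0.24; edgeR p = 0.272, exact permutation p = 0.2), and it stayed below 0 in all 18 alternatives, from -0.336 to -0.026. Egf in mouse kidney is made in the thick ascending limb and also in the distal convoluted tubule.

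**Figure D2:**
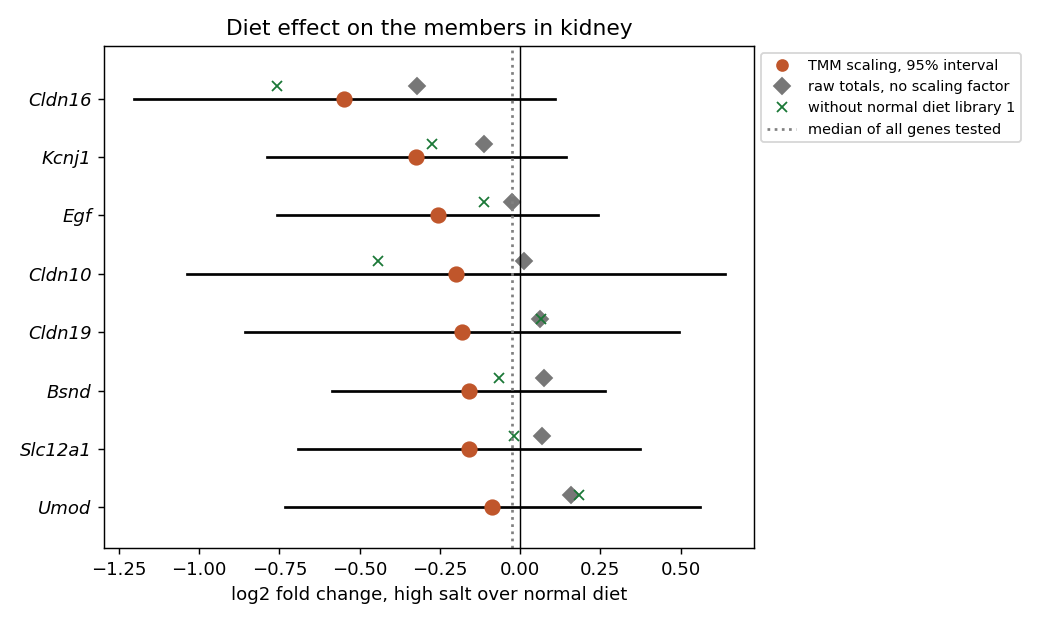
Log2 fold change of each gene in kidney, high salt over normal diet, with points and 95% intervals from edgeR with TMM scaling, diamonds for raw totals and crosses for the fit without normal diet library 1. All 8 intervals include 0, and of the 8 points that lie under 0 with TMM, 5 lie above 0 with raw totals and 2 (Umod and Cldn19) without normal diet library 1.

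The genes were also set against Slc12a1 within each library, since such a ratio does not depend on scaling. Egf kept the closest proportion, at 90.8 to 112 counts per 100 Slc12a1 counts on the normal diet, against 89 to 99.9 on high salt, a 1.26-fold range over the 6 libraries. Umod stood at 198 to 259 and 214 to 282 counts per 100. Kcnj1 stood at 38.2 to 48.3 and 31.8 to 50.2. These ranges of the diets overlapped for each of the 7 ratios. Cldn10 had the widest range, 3.2-fold, with 22.1 to 57.7 counts per 100 on the normal diet, against 24.1 to 70.8 on high salt. Cldn16 came next at 2.44-fold, and Bsnd, Umod, Cldn19 and Kcnj1 lay between 1.41-fold and 1.58-fold.

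Part of the group shared its highest and its lowest library. Slc12a1, Umod, Bsnd, Cldn19 and Egf were all highest in normal diet library 1 and lowest in high salt library 2 with TMM scaling. With raw totals Umod, Bsnd and Cldn19 were highest in high salt library 3 instead, and high salt library 2 was lowest for Cldn19 and Egf among these. Kcnj1 was also highest in normal diet library 1, but lowest in high salt library 3 with TMM and in normal diet library 2 with raw totals. Cldn10 ran against Umod under both scalings. Its 3 lowest libraries, normal diet 1 and high salt 1 and 3, were the 3 highest for Umod, and this was the side of the first principal component and of the length measure given above. Umod and Cldn10 have nearly the same exon length, 2627 and 2591 bases. Slc12a1 (4932 bases) and Egf (4795 bases) fall in the longest quartile of genes and Cldn16 (1173 bases) in the shortest. The part of transcript length in these orders was not tested gene by gene. With the length measure as a term of the fit, 8 of 8 log2 fold changes were below 0 (median -0.174) and the smallest adjusted p of the 8 was 0.33 (edgeR).

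**Figure D3:**
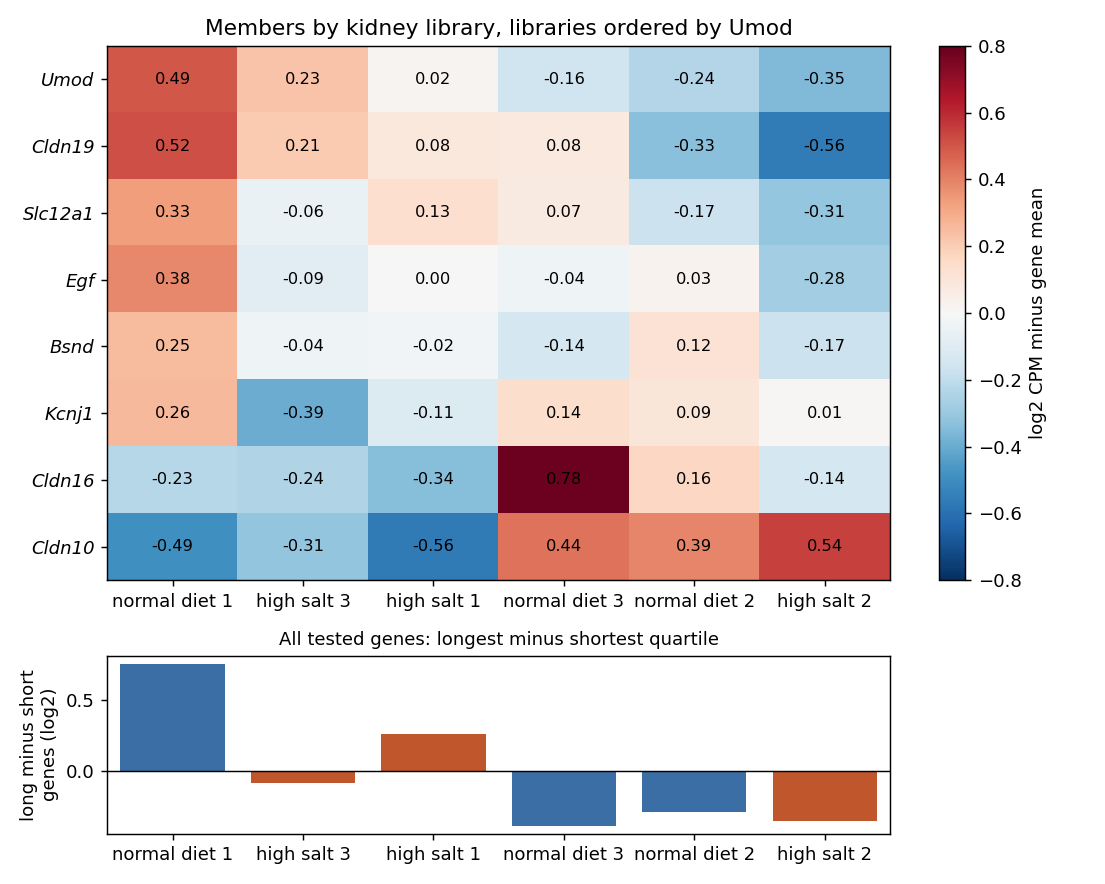
Log2 CPM of each gene minus its mean over the 6 kidney libraries, with libraries ordered from left to right by Umod, above the difference between the longest and the shortest quartile of all tested genes in the same libraries (blue bars normal diet, orange bars high salt). Cldn10 is at -0.31 to -0.56 in the 3 libraries where Umod is highest and at 0.39 to 0.54 in the other 3.

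Markers of the proximal tubule, the largest part of the kidney cortex, moved with Cldn10 in these libraries only as a sum, through Kap. The sum of 12 markers was 27920, 59720 and 62210 CPM in normal diet libraries 1, 2 and 3 and 36580, 62480 and 44870 CPM in high salt libraries 1, 2 and 3. Most of it was Kap, an androgen-regulated gene of the proximal tubule with an exon length of 707 bases, at 19940 to 55670 CPM. Not all markers of the list shared that order. Lrp2, the endocytic receptor megalin, was highest in normal diet library 1 (1507 CPM) and lowest in normal diet library 3 (677 CPM). Of the 12 markers, 5 were highest in high salt library 3, 2 each in normal diet libraries 1 and 2 and high salt library 1, and 1 in normal diet library 3. The part of proximal tubule RNA in the Cldn10 values was not tested.

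By likeness across the 6 kidney libraries, the genes closest to the mean centred log2 CPM of the 8 were Slc35b4 (Pearson r = 0.981), Pced1a (0.9798), Slc35e2 (0.966), Kifap3 (0.966), Lats1 (0.964) and Crebzf (0.963), out of 11813 genes with a mean of at least 50 counts. That mean was 0.19, 0.006 and 0.147 on the normal diet, against -0.1, -0.158 and -0.086 on high salt, in library order. With TMM scaling it thus separated the diets, and a gene alike or opposite in it leans the same way, as for Slc35b4, with a log2 fold change of -0.50 (edgeR, unadjusted p = 0.0291, adjusted p = 0.9996). Those most opposite were Gm6851 (-0.983), Commd10 (-0.9796) and Hba-a2 (-0.977), the last an alpha globin gene of red blood cells, with a log2 fold change of 0.60 (edgeR, unadjusted p = 0.0266, adjusted p = 0.9996). The 6 libraries share the same scaling, and the highest and lowest of so many values over 6 points are given as a description.

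Other genes of the segment were taken from 4 lists. Of 62 genes listed, 59 were tested in kidney, and 0 passed with edgeR. Unadjusted p-values under 0.05 were found for 5 of the 59, against 2.01% of all genes, and DESeq2 called 0 of them and 11 of all 15847. Log2 fold changes were below 0 for 43 of the 59 (72.9%) with TMM scaling, for 20 with raw totals and for 27 without normal diet library 1. The shares of all genes below 0 in these fits were 53.7%, 23% and 48.5%. The lists were chosen with results of these data known, and no list was tested as a set.

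Transport partners act beside NKCC2. They include the sodium pump, other chloride and potassium channels and exchangers. Of 16, 15 were tested, 11 below 0 with a median log2 fold change of -0.088, against 4 below 0 with raw totals and 6 without normal diet library 1. Among the most abundant were Atp1b1 and Fxyd2, the beta and gamma subunits of the sodium pump. Atp1b1 had a log2 fold change of -0.016 (SE 0.21). Fxyd2 was 664, 1151 and 1352 CPM on the normal diet, against 777, 1302 and 832 CPM on high salt, low in the same 3 libraries as Cldn10, with an exon length of 931 bases. Kcnma1, which encodes the large-conductance potassium channel, was chosen after its values were seen. It was 2.30, 1.41 and 1.65 CPM on the normal diet, against 0.983, 0.63 and 0.591 CPM on high salt. The diets did not overlap under TMM or raw totals, splits that 3.04% and 0.682% of all genes showed in that direction. These levels were low, as 3 counts over raw totals make 0.187 and 0.1705 CPM in high salt libraries 2 and 3. The log2 fold change was -1.27 (SE 0.39, edgeR, unadjusted p = 0.0117, adjusted p = 0.9996).

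Regulators of salt transport in the segment include the WNK kinases, their target kinases and hormone receptors. Of 20, 19 were tested, 11 below 0 with a median of -0.027, against 5 below 0 with raw totals and 7 without normal diet library 1. Among the 3 most abundant, Gnas, the stimulatory G protein subunit, had a log2 fold change of 0.26 (SE 0.24). Wnk1, a kinase that controls cation-chloride cotransport, stood at -0.34 (0.31), and Trpm7, a magnesium-permeable channel kinase, at -0.26 (0.23). Ptger3, the prostaglandin E2 receptor EP3 that opposes vasopressin in this segment, was chosen after its values were seen. It was 54.0, 46.1 and 44.2 CPM in normal diet libraries 1, 2 and 3 and 31.6, 28.4 and 24.1 CPM in high salt libraries 1, 2 and 3. Every high salt library lay under every normal diet library with TMM and with raw totals, a split that 0.682% of all genes showed in that direction with raw totals. The log2 fold change was -0.78 (SE 0.19, edgeR, unadjusted p = 0.00351 and adjusted p = 0.9996), so it was not called.

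Identity genes are the transcription factors and marker transcripts by which the segment is recognised. All 19 were tested, 16 below 0 with a median of -0.194, against 8 below 0 with raw totals and 9 without normal diet library 1. Diets were without overlap in 4 of them with TMM scaling, all lower on high salt, a split that 3.04% of all genes showed in that direction. These were Tmem207 (13.6 to 24.4 against 12.2 to 12.4 CPM), Sostdc1, a secreted BMP and Wnt antagonist (50.8 to 58.0 against 37.7 to 49.1), Sfrp1, a secreted Wnt antagonist (83.0 to 108 against 55.1 to 78.5) and Mfsd4a (49.5 to 56.7 against 39.7 to 48.5), named after their values were seen. With raw totals the diets overlapped in each of these 4. The 3 most abundant were Kng2, Tmem52b and Wfdc15b, with log2 fold changes of -0.14 (SE 0.18), -0.26 (0.21) and -0.38 (0.34). Wfdc15b was 79.6, 153 and 174 CPM on the normal diet, against 80.4, 141 and 91.7 CPM on high salt, again low in the 3 libraries where Cldn10 was low, with an exon length of 572 bases.

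The macula densa is the plaque of cells at the end of the segment that senses luminal salt through NKCC2. Of 7 listed genes 6 were tested, 5 below 0 with a median of -0.187, against 3 below 0 with raw totals and 5 without normal diet library 1. Itprid2 was 75.1, 83.6 and 79.3 CPM on the normal diet, against 68.0, 69.9 and 61.8 CPM on high salt, with no overlap under TMM and overlap with raw totals (log2 fold change -0.25, SE 0.18). Robo2 stood at -0.090 (0.34) and Ramp3 at 0.090 (0.25).

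**Figure D4:**
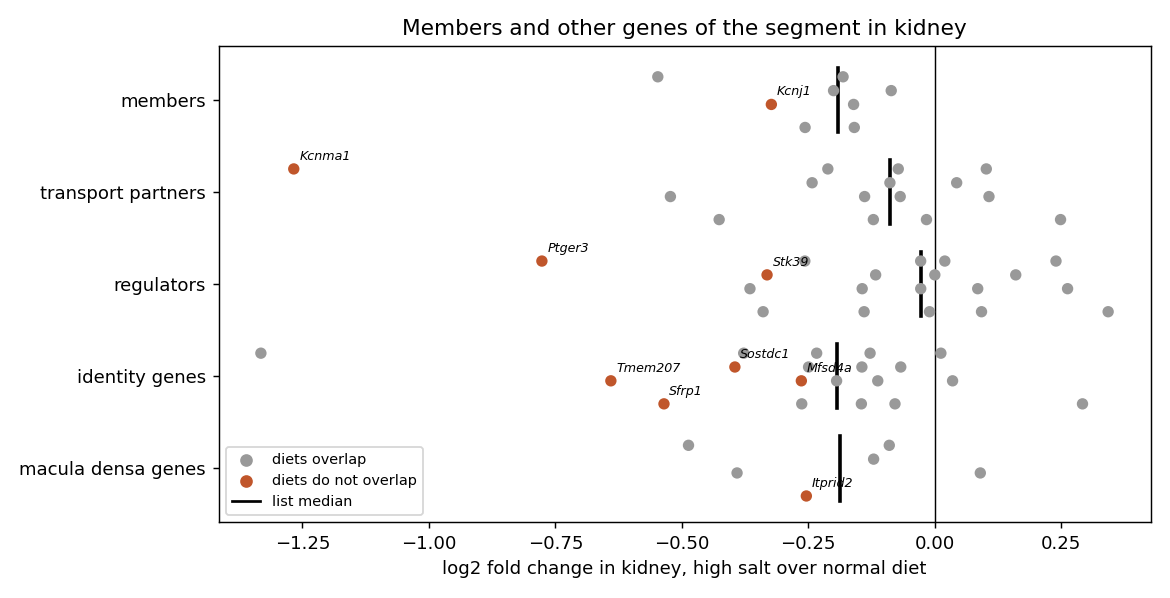
Log2 fold changes in kidney (high salt over normal diet, TMM scaling) of the 8 transport genes and of the 4 lists, 1 point per gene, with a black line at each list's median and orange points for genes whose diets do not overlap. Without overlap were 1 of the 8 genes and 8 of the 59 listed genes, all lower on high salt, and 2 of those 8 (Kcnma1 and Ptger3) are also without overlap with raw totals.

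Counted together, 8 of the 59 listed genes had diets without overlap (13.6%), all lower on high salt, against 3.04% of all genes in that direction, and 2 of the 59 with raw totals, against 0.682%. Neighbouring cell types had values of their own. With TMM scaling, under which 53.7% of all genes were below 0, 5 of 6 distal convoluted tubule markers were below 0 (median -0.344), and their summed level was 1201 to 1597 CPM on the normal diet, against 1066 to 1345 CPM on high salt. With raw totals 4 of the 6 were below 0, where 23% of all genes were. Calb1, the calbindin of distal tubules, chosen after its values were seen, was 374, 421 and 382 CPM on the normal diet, against 246, 291 and 264 CPM on high salt (log2 fold change -0.55, edgeR, unadjusted p = 0.021, adjusted p = 0.9996). All 6 endothelial markers were above 0 with TMM scaling and with raw totals, where 46.3% and 77% of all genes were, with summed TMM levels of 157 to 203 CPM on the normal diet, against 207 to 225 CPM on high salt. Intercalated cell markers summed to 157 to 172 CPM on the normal diet, against 133 to 151 CPM on high salt, without overlap under TMM and with overlap under raw totals (149 to 156 against 149 to 166), while 4 of the 6 had fold changes above 0 with TMM. Hepatocyte markers in kidney summed to 844 to 1319 CPM, against 1438 to 1634 CPM on high salt, with 3 of 6 above 0. Most of that sum was Cyp2e1, at 787 to 1224 CPM on the normal diet and 1339 to 1523 CPM on high salt. Log2 fold changes were 0.66 for Ttr, 0.56 for Cyp2e1 and 0.45 for Serpina1a. They were -1.31 for Alb, -1.335 for Apoa1 and -1.75 for Fgb. The 3 tested inner medulla and thin limb markers summed, with the other 3 listed, to 20.9 to 32.4 and 35.4 to 36.9 CPM. Urothelium markers summed to 0.0999 to 0.92 CPM on the normal diet, against 1.13 to 6.34 CPM on high salt. These sums rest on 2, 11 and 19 counts in normal diet libraries 1, 2 and 3. In high salt libraries 1, 2 and 3 they rest on 142, 18 and 27 counts. Of the 5 listed urothelium markers, 0 passed the filter to be tested. The part of differing cell composition in the values of the 8 genes was not tested.

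The liver offered a comparison with a tissue that lacks this segment. In 1 fit of all 14 libraries over 16633 genes, 5 of 5 listed genes were called higher in kidney than in liver on the normal diet (edgeR), as were 32.2% of all genes. Slc12a1, Umod, Kcnj1 and Cldn10 did not pass the filter in liver and entered this fit through their kidney counts, so they had to be higher in kidney to be tested, and Egf alone passed in both tissues. Differences were 15.34 for Slc12a1, 13.43 for Umod, 12.87 for Kcnj1, 12.47 for Cldn10 and 10.56 for Egf on the log2 scale, with adjusted p-values from 1.56e-11 to 1.54e-07 (edgeR). Fitted values for genes near 0 counts depend on the prior count, so ratios of CPM over raw totals are given too. The Egf ratio was 2260 (95% Poisson interval of the liver counts 1670 to 3150, counting error only) and the Umod ratio 17600 (10100 to 34000). Of the 12 Umod counts in normal diet liver 11 lay in library 3, and without that library the ratio was 159000 (28600 to 6290000). Slc12a1 had 1 count in all normal diet liver libraries together, which put its ratio at 92200 with an interval from 16600 to 3640000, and that count too lay in library 3.

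Counts of the other genes in liver were few and unevenly spread. Slc12a1 had 0, 0, 1 and 0 counts in normal diet libraries 1 to 4 and 1, 1, 22 and 2 in HS5 to HS8. Umod had 0, 0, 11 and 1 counts on the normal diet, against 2, 3, 68 and 27 on high salt. Kcnj1 had 3 counts on the normal diet, all in library 3, and 3, 0, 10 and 0 on high salt. Cldn10 had 4 counts on the normal diet, against 1, 0, 6 and 4 on high salt. A count of 0 allows up to 0.0634 to 0.0805 CPM in the 5 libraries concerned, at 3 counts of their totals. The 4 genes together had 106 counts in HS7, 33 in HS8, 17 in normal diet library 3 and 0 to 7 in the other 5 libraries.

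Kap followed the same libraries, with 1799 counts in HS7, 556 in HS8, 133 in normal diet library 3, 87 and 84 in HS5 and HS6 and 0 to 2 in the others. Slc34a1, the phosphate cotransporter of the proximal tubule, had 198 counts in HS7, 113 in HS8 and 13 in normal diet library 3. Of 12 proximal tubule markers in the liver table, 9 stayed under 1% of their kidney level in every liver library, and 8 of those 9 were highest in HS7 per total counts, as were 4 of the 5 thick ascending limb genes. In HS7 the levels as a percent of the kidney mean were 0.0986 for Umod, 0.0753 for Slc12a1, 0.0863 for Kcnj1, 0.0512 for Cldn10 and 0.0847 for Kap. The other 8 of the 9 low proximal markers stood higher there, from 0.113 for Slc7a13 to 0.389 for Slc34a1. Per 100 Umod counts HS7 held 32.4 Slc12a1 and 14.7 Kcnj1 counts, and the kidney libraries held 35.4 to 50.6 and 11.3 to 22.3. HS7 thus lay under the kidney range for Slc12a1 and inside it for Kcnj1. HS8 held 7.41 and 0 and normal diet library 3 held 9.09 and 27.3, outside both ranges, on few counts. The source of these counts was not tested.

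**Figure D5:**
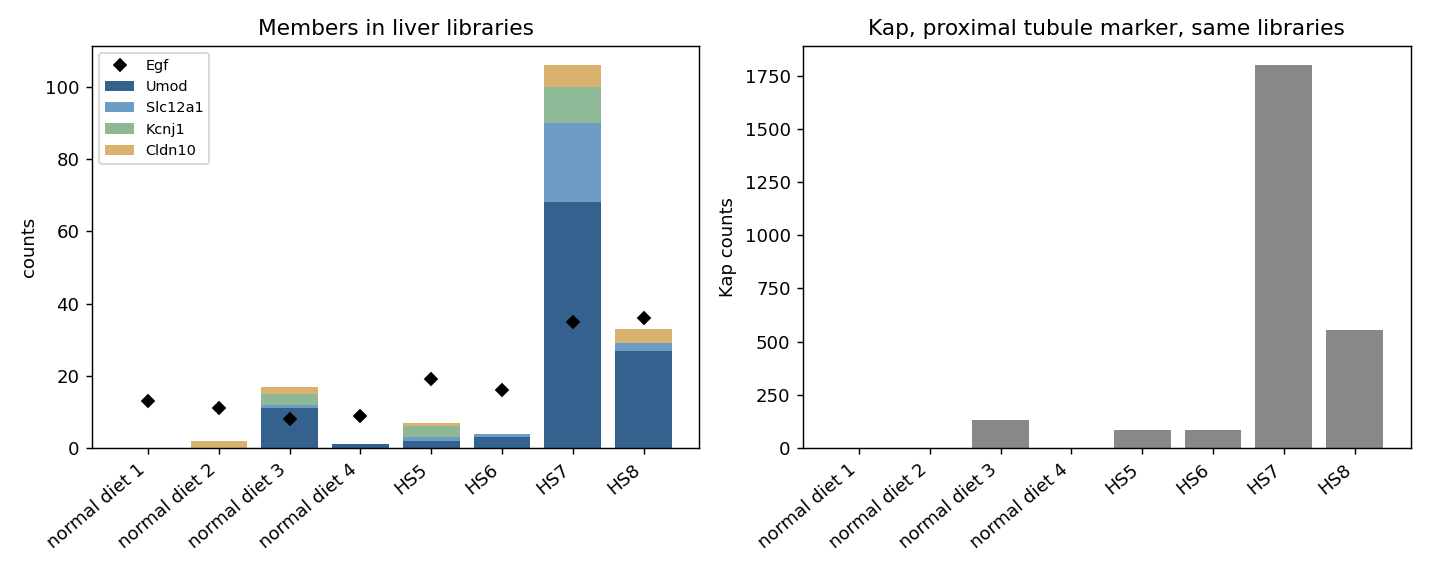
Counts of the genes in each liver library (left: stacked bars for Umod, Slc12a1, Kcnj1 and Cldn10, diamonds for Egf) and of the proximal tubule marker Kap in the same libraries (right). The bars and Kap are highest in HS7 (106 and 1799 counts), while Egf has 8 to 36 counts in every library.

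Egf was the one gene of the 8 with counts in every liver library, 13, 11, 8 and 9 on the normal diet and 19, 16, 35 and 36 in HS5 to HS8. Its level was 0.269 ± 0.0433 CPM in the normal diet libraries and 0.508 ± 0.204 CPM in HS5 to HS8 (SD, n = 4 each), with no overlap, a split that 6.42% of liver genes showed in that direction. The log2 fold change was 0.91 (SE 0.37, 95% interval 0.078 to 1.74) and missed the threshold (edgeR, unadjusted p = 0.035 and adjusted p = 0.205, where 1% of liver genes passed and 21.2% had an unadjusted p under 0.05). The exact permutation p, with the close pair HS5 and HS6 taken as separate, was 0.0286, the smallest that 4 against 4 can give. HS7 and HS8, the libraries with the most counts of Umod and Kap, held its highest values, and whether those counts bear on Egf was not tested. In a fit without both of them the log2 fold change was 0.31 (edgeR adjusted p = 0.712). With HS5 and HS6 summed to 1 library it was 1.05 (edgeR adjusted p = 0.338). Adjusted p-values ran from 0.198 to 0.712 over all alternatives. Per 100 Umod counts, Egf stood at 33.8 to 50.6 in kidney, 51.5 in HS7, 133 in HS8, and 533 and 950 in HS6 and HS5.

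A last test asked whether the diet effect differed between kidney and liver. None of the 5 genes passed (0 called with edgeR and 0 with DESeq2), and edgeR called 0% of the 16633 genes. Unadjusted p-values under 0.05 were seen in 2 of the 5, where 10.1% of all genes had one. These were Egf, whose log2 kidney effect minus liver effect was -1.16 (edgeR adjusted p = 0.361), and Slc12a1, with -3.88 (edgeR adjusted p = 0.407). The Slc12a1 value rests on 1 normal diet liver count and 26 high salt liver counts, 22 of them in HS7.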

How the data were processed

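Kidney and liver mRNA was sequenced, per the labels' protocols. The authors deposited expected counts per gene estimated by the E/M method of Partek, per the file names. The submitters' processing notes name Partek 7.0, STAR 2.5.3a, DESeq2 and build mm10 without giving their roles. The annotation and filters are not given in the sources used here. Every listed gene has at least 10 counts over its table. The authors also deposited normalized kidney values, a signal per gene whose scaling is not stated, used here only in an alternative. No column of per-sample values was left unused in the tables read.

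Expected counts were rounded and tested with edgeR 4.0.16 in R 4.3.3 (quasi-likelihood, TMM, filterByExpr by group). Diets were compared within each tissue, and tissues and their interaction in 1 fit of 14 libraries. P-values were adjusted over all genes by Benjamini-Hochberg and called under 0.05. CPM values use TMM library sizes. Exact permutation tests were two-sided. Exon lengths come from GENCODE M21 on GRCm38, which held 97.7% of the kidney symbols, 99.4% of them with the same start. Kidney libraries had a common biological coefficient of variation of 0.3, so replicate spread limits the abundant genes more than counting does. Intervals of counts and the floor of 3 counts cover counting error only, as reads carry no molecular identifiers.

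All 8 genes were named. For each companion list the rule took genes past the threshold or else the 3 most abundant, and the 6 most alike and 3 most opposite genes. One gene that the rule takes is not reported here. Other genes are marked as chosen after their values were seen. The genes, the lists and the rule were chosen with earlier results of these data known. Alternatives were DESeq2 1.42.0, scaling by RLE or upper quartile, limma 3.58.1 on log2 normalized values with pseudocounts of 1 and 0.1, other filters, mitochondrial genes left out, a replicate block, HS5 and HS6 summed, all libraries in 1 fit, and each library left out. Raw totals, the length measure and leaving out HS7 with HS8 were chosen after seeing the data. The human transgene was not analysed here.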

Additional observations from a re-analysis of the deposited data

Results flagged for a closer look

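In 4 of the 10 groups of 4 liver libraries checked, 1 library lay far from the rest. Where the other libraries hold 0 counts, any count at all puts a library far from them. The groups also share the same libraries, so no rate by chance is given. Normal diet library 3 accounted for 3 of them. Its Slc12a1 level was 0.0315 CPM and its Kcnj1 level 0.0944 CPM, with 0 counts in the other normal diet libraries. Its Umod level was 0.346 CPM, and the next library held 0.024 CPM. On high salt, HS7 held 0.457 CPM of Slc12a1 and the next library 0.0353 CPM. These levels rest on 1, 3, 11 and 22 counts, and these libraries also held the most Kap of their diet (133 counts in normal diet library 3 and 1799 in HS7).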

How the results depend on the processing

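The count of called members was 0 in kidney, 0 in liver, 5 of 5 between the tissues and 0 for the interaction. All 88 recomputed counts, those of the listed companion genes included, gave the same values. With adjusted p-values of 0.9996 for the 8 genes in kidney, counts of 0 there say little about stability. Slc12a1, Umod, Kcnj1 and Cldn10 entered the fit between the tissues through their kidney counts, so the 5 of 5 there was largely fixed. In liver the main fit tested Egf alone. Of the 141 recomputed kidney log2 fold changes of single members, 131 kept their sign and 10 turned. With raw totals the turned values were 0.067 for Slc12a1, 0.158 for Umod, 0.074 for Bsnd, 0.014 for Cldn10 and 0.061 for Cldn19. This alternative moved the median of all genes from -0.025 to 0.204. Values ran from -0.225 to 0.184 for Umod, from -0.369 to 0.065 for Cldn19 and from -0.603 to 0.012 for Cldn10 when each library was left out in turn. Umod turned to 0.184 without normal diet library 1 and 0.058 without high salt library 2, Cldn19 to 0.065 and 0.018, and Cldn10 to 0.012 without high salt library 1. Apart from the shift of all genes with raw totals, the cause was not tested.

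In the labels, kidney samples of the 2 diets share only replicate numbers. Deviations of same-numbered libraries correlated at 0.407, 0.373 and -0.09, and normal diet library 3 correlated best with high salt library 2 (0.387). With 3 libraries per diet, these values cannot decide whether samples were paired. The replicate block left 0 members called and 8 of 8 below 0, with a median of -0.2. Requiring 10 counts in every library left no member to test in liver, between the tissues or for the interaction, so those values were not given. With 103 to 256 counts per library Cldn16 carries the most counting error of the 8 in kidney, and liver counts of 0 only bound a level.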
